A study of Mus musculus with 6 samples.

Results

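The 8 enzymes examined here belong to the pentose phosphate pathway, and their transcripts were examined on arrays of muscle RNA from SIRT6KO and wild-type (WT) mice. The genes were chosen by name, as G6pdx, Pgls, Pgd, H6pd, Rpia, Rpe, Tkt and Taldo1, and every probe set (a group of short probes designed against 1 transcript) that the platform annotation gives to 1 of these symbols was taken. This gave 14 of the 45037 probe sets, for 7 of the 8 genes. No probe set used here carries the symbol G6pdx, so its transcript was not analysed here. The SIRT6KO group held 3 mice labelled SIRT6KO, and the WT group held 3 mice labelled wild type. All 6 were on the 129SvJ background, with 1 array per mouse. SIRT6 is a NAD-dependent deacylase of chromatin. The sources used here do not state the age or sex of the mice, which muscle was taken or how the SIRT6KO allele was made.

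The pathway branches from glycolysis at glucose 6-phosphate. Its oxidative branch (G6pdx, Pgls, Pgd) oxidizes that sugar to ribulose 5-phosphate and makes NADPH, the electron donor of lipid synthesis and of glutathione and thioredoxin reduction. H6pd carries out the first steps of the same chemistry inside the endoplasmic reticulum. The non-oxidative branch (Rpia, Rpe, Tkt, Taldo1) interconverts pentose, triose and hexose phosphates, supplies ribose 5-phosphate for nucleotides and returns carbon to glycolysis. Resting skeletal muscle is known for low activity of the pathway, while lipid-making tissues such as fat and liver are known for high activity.

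The arrays differed in ways that bear on every value below. The median intensity was 11 to 13.5 in the SIRT6KO arrays and 10.8 to 15 in the WT arrays. The 18 probe sets of the hybridization controls, which are added in known amounts, read 0.968 to 1 times WT replicate 2 in the SIRT6KO arrays. In WT replicate 1 they read 1.93 times WT replicate 2. Sirt6 itself read 22.6, 18.3 and 13.7 in the SIRT6KO arrays and 23.2, 15.1 and 21.3 in the WT arrays (adjusted p = 0.947). Its place relative to the deletion is unknown, so these values check no label. Xist, the RNA of the inactive X chromosome, was higher in the SIRT6KO arrays (1007 ± 253, against 28.5 ± 3.54 in WT, SD, n = 3 each, adjusted p = 0.00401), and the Y-linked Eif2s3y was low in them (2.63 ± 1.5, against 58.5 ± 16.8 in WT). Genotype and sex therefore cannot be told apart. Muscle fibre markers were bright in both groups, with Ckm at 9226.7 to 10352.1 in the SIRT6KO arrays and 9280.3 to 16058.6 in the WT arrays.

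The start regions of the 4 non-oxidative genes are printed. All pathway probe sets with every SIRT6KO array below every WT array lie in that branch. Each runs from 250 bases before to 50 bases after the annotated gene start (RefSeq, GRCm38.p6), 5′ to 3′ on the gene's strand. Capitals mark the GC box GGGCGG on either strand, the motif bound by Sp1-type factors.
Tkt, chr14:30548881-30549180, + strand: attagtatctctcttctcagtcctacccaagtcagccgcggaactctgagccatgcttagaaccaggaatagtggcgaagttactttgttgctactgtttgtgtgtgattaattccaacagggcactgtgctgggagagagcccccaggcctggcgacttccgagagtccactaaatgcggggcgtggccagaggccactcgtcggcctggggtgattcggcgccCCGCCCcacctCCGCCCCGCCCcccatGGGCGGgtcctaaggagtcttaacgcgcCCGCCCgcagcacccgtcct
Taldo1, chr7:141391910-141392209, + strand: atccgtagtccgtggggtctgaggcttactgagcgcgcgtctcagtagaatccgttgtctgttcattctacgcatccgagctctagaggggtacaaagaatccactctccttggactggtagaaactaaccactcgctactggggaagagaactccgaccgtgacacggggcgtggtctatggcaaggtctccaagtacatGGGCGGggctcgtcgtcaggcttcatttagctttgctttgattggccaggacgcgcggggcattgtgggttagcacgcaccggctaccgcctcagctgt
Rpia, chr6:70792126-70792425, - strand: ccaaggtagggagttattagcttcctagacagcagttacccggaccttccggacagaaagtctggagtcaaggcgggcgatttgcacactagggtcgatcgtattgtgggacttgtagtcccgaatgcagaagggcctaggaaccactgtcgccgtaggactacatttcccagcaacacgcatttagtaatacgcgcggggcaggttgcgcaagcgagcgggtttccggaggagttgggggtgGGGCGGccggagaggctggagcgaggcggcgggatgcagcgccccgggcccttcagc
Rpe, chr1:66700581-66700880, + strand: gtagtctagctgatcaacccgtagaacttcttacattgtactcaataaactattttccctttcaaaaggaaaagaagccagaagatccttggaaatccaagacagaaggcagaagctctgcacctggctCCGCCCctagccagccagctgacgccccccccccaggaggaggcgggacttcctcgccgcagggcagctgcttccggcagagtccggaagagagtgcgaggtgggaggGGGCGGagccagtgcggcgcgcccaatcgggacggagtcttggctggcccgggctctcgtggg

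Tkt's window held 5 GC boxes, a pair of which overlap by 1 base. A GC box occurs in 35.7% of the 32851 windows of this length and 5 or more in 2.71%. Taldo1 and Rpia held 1 GC box each and Rpe 2. The other motifs were searched on both strands: the antioxidant response element core TGACNNNGC bound by NRF2, the E-box CACGTG used by ChREBP, and the sterol element TCACNCCAC used by SREBP. They occur in 12.4%, 7.15% and 1.24% of all windows and had no match in these 4 windows. In the oxidative branch, the Pgls window held 1 GC box, 1 of the pair of Pgd windows held 1 GC box and the other 1 antioxidant core, and the H6pd window held no match to any of the 4 motifs. A match is a description of letters and not a binding site.

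All 4 genes of the non-oxidative branch had lower means in SIRT6KO muscle. So had Pgls and Pgd of the oxidative branch, while H6pd had a higher mean. The groups overlapped for the 3 oxidative genes and for Rpe at its brightest probe set. Each intensity was analysed as log2(intensity + 16), and each gene was represented by its brightest probe set. No pathway probe set passed limma's test over all probe sets (0 of 14 at an adjusted p under 0.05, against 0.00888% of all probe sets). At an unadjusted p under 0.05, 5 of the 14 were lower in the SIRT6KO arrays and 0 higher, against 4.99% of all probe sets that were lower. In the same 5 probe sets, of Tkt, Rpia, Rpe and Taldo1, all SIRT6KO arrays lay below all WT arrays, against 7.29% of all probe sets. Counted by gene, 6 of 7 had a lower mean log2 level in SIRT6KO, against 53.2% of all genes, and 3 of 7 had an unadjusted p under 0.05, against 6.29% of all genes that were lower. In 3 of the 4 non-oxidative genes all SIRT6KO arrays lay below all WT arrays, a pattern seen in 8.34% of all genes. In the 3 oxidative genes the groups overlapped. The pathway genes were chosen with earlier results of these data known, so these counts beside the shares of all genes carry no test.

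**Figure D1:**
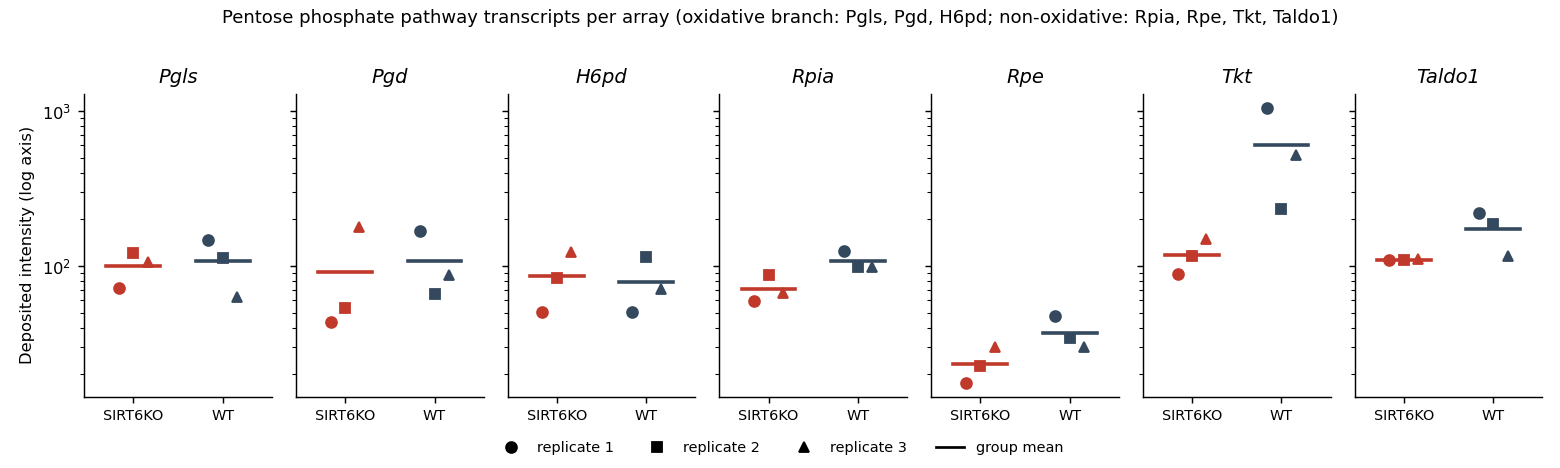
Deposited intensity (log axis) of the brightest probe set of each pathway gene, with SIRT6KO arrays on the left of each panel and WT arrays on the right; the symbol shape gives the replicate and the line the group mean. Tkt lies at 88.3 to 149.6 in SIRT6KO and 231.7 to 1049.7 in WT, while Pgls, Pgd, H6pd and Rpe overlap between the groups.

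Tkt encodes transketolase, the thiamine-dependent enzyme that moves carbon pairs between sugar phosphates. At probe set 1439443_x_at it read 88.3, 115.7 and 149.6 in the SIRT6KO arrays, against 1049.7, 231.7 and 522.3 in the WT arrays. Every SIRT6KO array lay below every WT array, and the WT values spread widely, with replicate 1 the highest and replicate 2 the lowest. The means were 118 ± 30.7 in SIRT6KO and 601 ± 415 in WT (SD, n = 3 each). On the log2(intensity + 16) scale the difference was -1.99 (95% interval -3.18 to -0.79), which is 3.97-fold lower in SIRT6KO, with an unadjusted p of 0.00578 and an adjusted p of 0.524 by limma. Of all 45037 probe sets only 15 had a more negative difference, but 485 had a lower p.

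Probe set 1451015_at of Tkt also had every SIRT6KO array below every WT array. It read 70.3, 70.2 and 95.8 in the SIRT6KO arrays and 635.9, 145.9 and 351.2 in the WT arrays, a difference of -1.85 on the log2 scale (interval -2.97 to -0.73, adjusted p = 0.524). The remaining Tkt probe set, 1436605_at, was dim in all arrays, at 3 to 5.9 in SIRT6KO and 1.1 to 11.5 in WT, and carries little information. Probe sets with the suffix _x_at may also detect related sequences. The transketolase-like paralogues Tktl1 and Tktl2 read at most 12.5 in SIRT6KO and at most 11.8 in WT.

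When the test was restricted to the 22518 probe sets above the median level, both bright Tkt probe sets passed (adjusted p = 0.04 for 1439443_x_at and 0.0451 for 1451015_at), the only 2 of 12 pathway probe sets tested, against 0.351% of all probe sets in that test. For 1439443_x_at the call did not hold when WT replicate 1 (adjusted p = 0.393), WT replicate 3 (0.268) or SIRT6KO replicate 2 (0.224) was left out, nor with quantile normalization (0.0863) or centring on the median (0.0927). The shares of all tested probe sets that passed in those settings were 0.0355%, 0.0355%, 0.0577%, 0.124% and 0.182%, in that order. The Tkt call held when the arrays were scaled to their hybridization controls (0.00283), where 605 probe sets passed (2.69%), against 79 without that scaling. The call also held without SIRT6KO replicate 1 (0.0059), SIRT6KO replicate 3 (1.18e-09) or WT replicate 2 (0.000934). In these tests 6.06%, 1.44% and 0.298% of all probe sets passed. With a block for the replicate number it held at 0.0431.

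Taldo1 encodes transaldolase, which transfers a carbon unit between sugar phosphates. It read 109.4, 108.5 and 110.5 in the SIRT6KO arrays, against 219.3, 186.4 and 115.9 in the WT arrays. The SIRT6KO values were almost equal to each other and just below WT replicate 3, while WT replicates 1 and 2 were clearly higher. The difference was -0.56 on the log2 scale (interval -1.08 to -0.03, unadjusted p = 0.0405, adjusted p = 0.573).

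Rpia encodes ribose 5-phosphate isomerase, which makes ribose 5-phosphate from ribulose 5-phosphate. Its values were 59.8, 87.7 and 67 in SIRT6KO and 124.3, 98.1 and 98.1 in WT. The groups did not overlap, and the nearest pair of arrays was SIRT6KO replicate 2 and WT replicates 2 and 3. The difference was -0.50 (interval -0.89 to -0.10, unadjusted p = 0.022, adjusted p = 0.56).

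Rpe encodes ribulose 5-phosphate epimerase, which makes xylulose 5-phosphate, a substrate of transketolase. Its brightest probe set, 1416705_at, read 17.6, 22.5 and 30.2 in SIRT6KO and 47.3, 34.1 and 30.1 in WT. SIRT6KO replicate 3 exceeded WT replicate 3 by 0.1 of an intensity unit, so the groups overlapped, and the difference was -0.43 (interval -0.86 to 0.0027, adjusted p = 0.584). A second probe set of similar brightness, 1416706_at, read 24, 18.1 and 19.3 in SIRT6KO and 36, 29.8 and 28.4 in WT, with no overlap (-0.38, interval -0.69 to -0.065, adjusted p = 0.562). The third, 1448444_at, was below the offset of 16 in every array.

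Pgd, which encodes the 6-phosphogluconate dehydrogenase that makes NADPH, had 4 probe sets. At the brightest, 1423706_a_at, it read 43.3, 53.5 and 177.7 in SIRT6KO and 166.8, 65.9 and 88 in WT. SIRT6KO replicate 3 was the highest array of all 6 and SIRT6KO replicate 1 the lowest, so the spread within SIRT6KO was larger than the distance between the groups (-0.32, interval -1.51 to 0.87, adjusted p = 0.908). The other 3 probe sets had SIRT6KO means of 50.1 to 60.2 and WT means of 55.9 to 61, and in each of them SIRT6KO replicate 3 was far above the other SIRT6KO arrays.

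Pgls encodes 6-phosphogluconolactonase, the hydrolase between both dehydrogenases of the oxidative branch. It read 72.3, 121.6 and 106.6 in SIRT6KO and 147.5, 112.6 and 63 in WT, with the lowest value of all in WT replicate 3. The difference was -0.052 (interval -0.76 to 0.66, adjusted p = 0.986). H6pd read 50.5, 83.1 and 123 in SIRT6KO and 50.4, 114.5 and 71.5 in WT, and was the only pathway gene whose SIRT6KO mean was the higher one (85.5 ± 36.3, against 78.8 ± 32.7 in WT; log2 difference 0.091, interval -0.71 to 0.90, adjusted p = 0.974). The interval for Pgls runs to 1.58-fold higher and 1.70-fold lower in SIRT6KO, and that for H6pd to 1.86-fold higher and 1.64-fold lower.

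**Figure D2:**
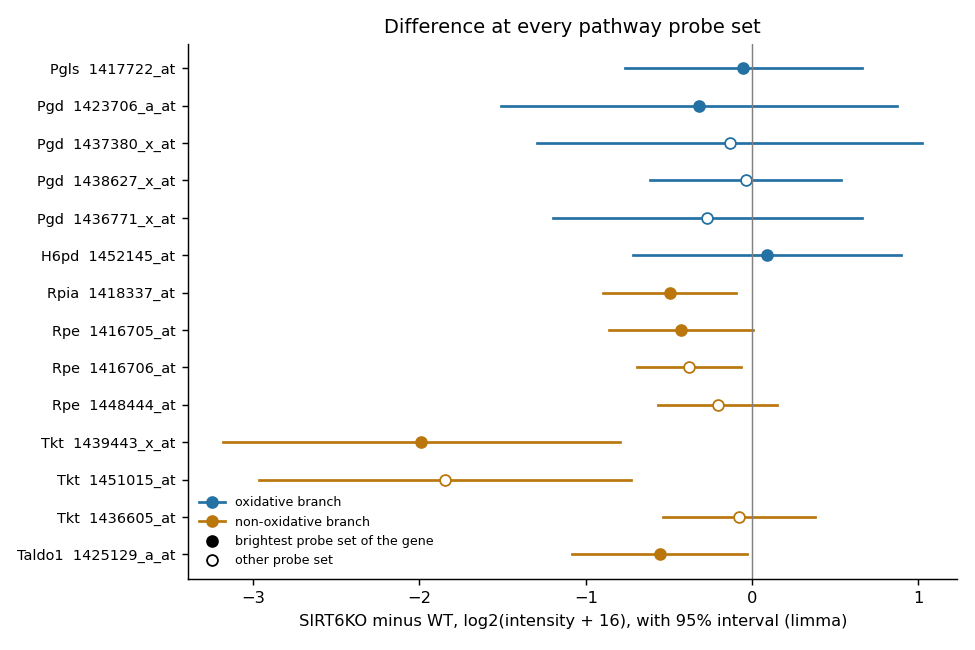
Difference between SIRT6KO and WT on the log2(intensity + 16) scale for all 14 pathway probe sets, with limma's 95% interval; filled points are the brightest probe set of a gene and colours give the branch. The points of 13 of the 14 lie below 0, and those of the bright Tkt probe sets lie farthest from it.

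Array by array, the mean distance of the 4 non-oxidative genes from their WT mean was -1.05, -0.81 and -0.74 in the SIRT6KO arrays and 0.46, -0.28 and -0.18 in the WT arrays, on the log2(intensity + 16) scale. Without Tkt it was -0.63, -0.42 and -0.43 in SIRT6KO and 0.27, -0.013 and -0.26 in WT. On the deposited scaling the SIRT6KO arrays lay below the WT arrays with and without Tkt. With scaling to hybridization controls the groups overlapped without Tkt, at -0.39, -0.16 and -0.14 in SIRT6KO and -0.25, 0.24 and 0.0034 in WT. For the 3 oxidative genes the distance was -0.62, -0.13 and 0.47 in SIRT6KO and 0.22, 0.045 and -0.27 in WT, and the groups overlapped. Over all genes the median distance was -0.10, 0.032 and -0.014 in SIRT6KO and 0.15, -0.0020 and -0.14 in WT. The median difference of the 7 genes was -0.43, against -0.017 over all 18193 genes.

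**Figure D3:**
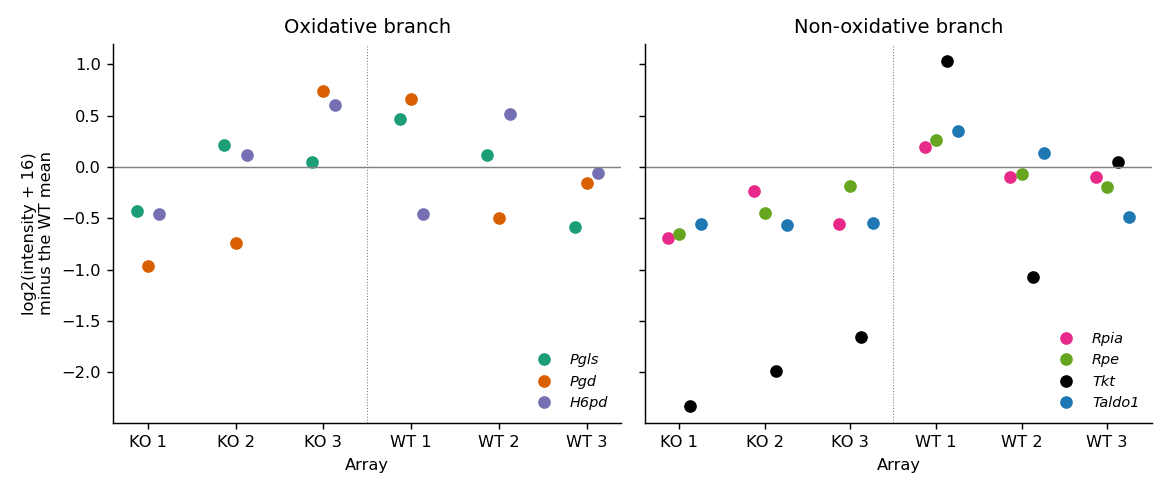
Distance of each pathway gene from its WT mean, on the log2(intensity + 16) scale, in each of the 6 arrays. Each oxidative gene has SIRT6KO points on both sides of 0, whereas every non-oxidative SIRT6KO point lies below 0, with Tkt at -2.32 to -1.66.

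How many non-oxidative genes separated the groups depended on the scaling. Quantile normalization and centring each array on its median gave 4 of 4, where all genes gave 10.3% and 8.68%. Scaling each array to its hybridization controls, which lowers WT replicate 1, gave 1 of 4, Tkt alone, where all genes gave 2.83%. With that scaling the differences of Rpia, Rpe and Taldo1 were -0.22, -0.21 and -0.26, and that of Tkt was -1.68.

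Tkt was also set against each other pathway gene within the same arrays. The log2 level of Tkt minus that of Pgd was 0.81, 0.92 and -0.23 in the SIRT6KO arrays, against 2.54, 1.60 and 2.37 in the WT arrays. For 5 of 6 partner genes all SIRT6KO differences lay below all WT differences. The exception was Taldo1, where SIRT6KO read -0.27, 0.081 and 0.39 and WT read 2.18, 0.29 and 2.03, so that SIRT6KO replicate 3 lay above WT replicate 2. A scale factor common to an array nearly cancels in these differences, which were chosen after the values of Tkt were known and so carry no test.

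The array pattern of Tkt was most like that of 3 genes tied to lipid synthesis and fat cells. Among 3042 other genes with a mean intensity of at least 100, Thrsp, which promotes lipogenesis, had the smallest root mean square difference from Tkt (0.308 log2 units over 6 arrays). Cidea, a lipid droplet protein abundant in brown fat, followed at 0.454 and Fasn, the NADPH-using fatty acid synthase, at 0.468. Thrsp read 145.7, 147.9 and 265.2 in SIRT6KO and 1057.5, 278.1 and 486.7 in WT (adjusted p = 0.546). Fasn read 32.5, 57.2 and 92.1 in SIRT6KO and 1120.8, 89.2 and 441.4 in WT (adjusted p = 0.562). SIRT6KO replicate 3 of Fasn lay above WT replicate 2, so Fasn overlapped, while Thrsp did not. In both, as in Tkt, WT replicate 1 was the highest array and WT replicate 2 the lowest of the WT arrays.

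Fat cell markers were read beside Tkt, since a muscle sample can hold fat. Of 6 measured markers of 8 listed for adipocytes, 5 had a lower mean log2 level in SIRT6KO and 2, Retn and Lep, had all SIRT6KO arrays below all WT arrays. Over all genes these shares were 53.2% and 8.34%. The summed intensity of the 6 adipocyte markers was 3618 to 6749 in SIRT6KO and 4206 to 8114 in WT, so the groups overlapped. That sum was mostly Fabp4 and Lpl, and says little of the dimmer markers. Fabp4 had a lower mean log2 level in SIRT6KO (-0.29), and Lpl was the marker with a higher one (0.30). Adipoq, the adiponectin gene, read 131, 277.8 and 339.5 in SIRT6KO and 606.9, 295.6 and 293.9 in WT. Of the 4 brown fat markers, all 4 had a lower mean log2(intensity + 16) level in SIRT6KO, though for Elovl3 the difference was -0.011 and its mean intensity was slightly higher in SIRT6KO, from values of 7.7, 21.2 and 10.7 in SIRT6KO and 15.7, 10.3 and 12.9 in WT. A pair of them, Ucp1 and Cidea, did not overlap. The sum of the 4 was 1103 to 1772 in SIRT6KO and 2243 to 3603 in WT. That sum was mostly Cox7a1, whose groups overlapped. Cox7a1 read 1469.9, 1415.4 and 898.3 in SIRT6KO and 1886.4, 1730 and 1202.2 in WT (adjusted p = 0.747). Ucp1, the brown fat uncoupling protein, read 129.9, 5.9 and 2.3 in SIRT6KO and 877.2, 570.3 and 586.1 in WT. Its log2 difference of -4.13 was the most negative of all probe sets. Neither passed the test over all probe sets (adjusted p = 0.436 for Ucp1 and 0.384 for Cidea), and in the test above the median level both passed (adjusted p = 0.00237 for Ucp1 and 0.0162 for Cidea). Ucp1 fell below the offset of 16 in SIRT6KO replicates 2 and 3. Lep read 6, 5.4 and 2.9 in SIRT6KO and 7.1, 19.1 and 11.1 in WT. Values below the offset do not show whether a transcript was present. The part of fat in the Tkt values was not tested. In bulk muscle, fewer cells of a type and less RNA per cell cannot be told apart.

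**Figure D4:**
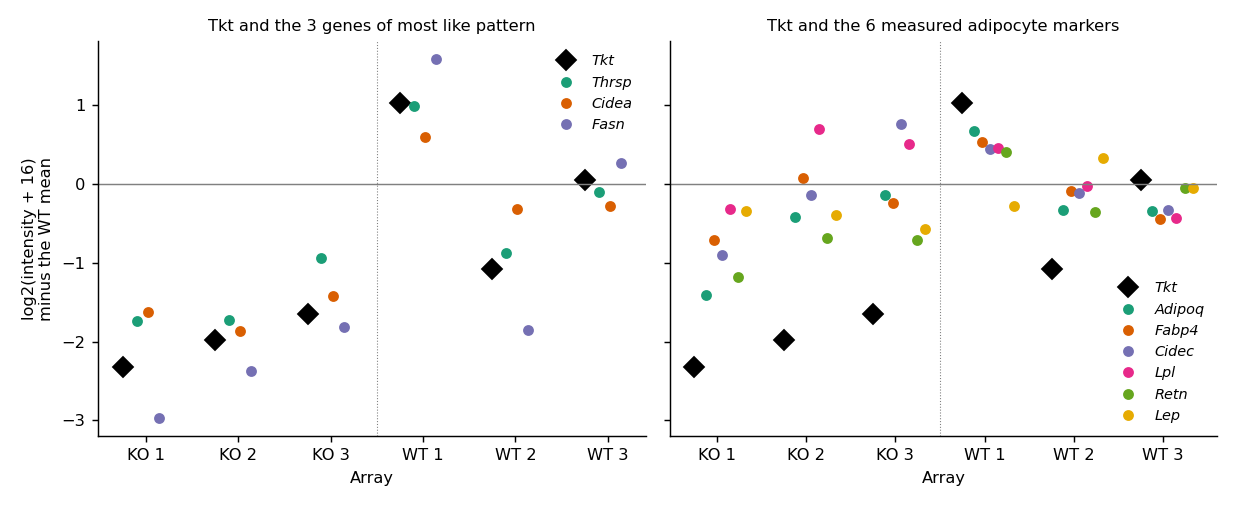
Distance from the WT mean on the log2(intensity + 16) scale in each array for Tkt (diamonds), beside the 3 genes of most like pattern (left) and the 6 measured adipocyte markers (right). Thrsp, Cidea and Fasn lie below their WT mean in all 3 SIRT6KO arrays, as Tkt does, and so do the markers Adipoq, Retn and Lep. Fabp4, Cidec and Lpl each have at least 1 SIRT6KO point above their WT mean. Fasn and Adipoq have a SIRT6KO point above a WT point.

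Markers of other cell types were read in the same way. Over all genes, 53.2% had a lower mean log2 level in SIRT6KO. All SIRT6KO arrays lay below all WT arrays in 8.34% of genes and above them in 4.51%. The 6 fibroblast markers summed to 3610 to 7623 in SIRT6KO and 7377 to 12866 in WT, with 2 of 6 (Lum and Col1a1) not overlapping and 5 of 6 lower in the mean log2 level. The 7 macrophage markers summed to 318 to 503 in SIRT6KO and 348 to 608 in WT, with 4 of 7 lower in the mean log2 level, and 1 of 7, Cd163, did not overlap and was higher in SIRT6KO. The 5 endothelial markers summed to 330 to 594 in SIRT6KO and 356 to 448 in WT, and all 5 overlapped. The 4 smooth muscle markers summed to 181 to 398 in SIRT6KO and 584 to 898 in WT, so these sums did not overlap. That sum was mostly Acta2, the smooth muscle actin gene, at 340.2, 255.1 and 105.4 in SIRT6KO and 802, 585 and 539.2 in WT (adjusted p = 0.524), and the other 3 overlapped. All 4 measured neutrophil markers and all 3 measured red blood cell markers overlapped, with sums of 51.4 to 119 in SIRT6KO and 48.8 to 69.6 in WT for neutrophils and of 39.5 to 59.2 in SIRT6KO and 48.9 to 83.8 in WT for red blood cells. Some of these markers were dim, such as Camp at 0.7 to 2.9 in SIRT6KO and 1.3 to 4.5 in WT. Such values do not show whether the transcript was present. The part of these cell types in the pathway values was not tested.

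In the lists of neighbouring genes, higher and lower means are means of log2(intensity + 16). Around the pathway, 76 of 85 listed neighbour genes were measured, and 0 passed limma's test over all probe sets. At an unadjusted p under 0.05, 5 were higher and 6 lower in SIRT6KO, against 9.83% of all genes in either direction. Their median difference was -0.055, against -0.017 over all genes. Of all genes, 53.2% had a lower mean in SIRT6KO. All SIRT6KO arrays lay below all WT arrays in 8.34% of them and above in 4.51%.

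Of 13 measured genes at the entry from glycolysis, 2 had higher and 11 lower means in SIRT6KO (median -0.14). Pfkl, the liver-type phosphofructokinase that commits hexose phosphate to glycolysis, read 51.2, 60.3 and 38.5 in SIRT6KO and 225.6, 116.6 and 142 in WT. The groups did not overlap (-1.39, adjusted p = 0.43), and in the test above the median level it was the only neighbour gene to pass (adjusted p = 0.0339). Pfkm, the muscle isoform, named beside it after its values were seen, overlapped at 4047.4, 4143.4 and 3367.3 in SIRT6KO and 4143.2, 3698.2 and 3047.1 in WT. Fbp2, the muscle fructose bisphosphatase, read 97.3, 316 and 180.5 in SIRT6KO and 80.6, 113.4 and 50.8 in WT (1.05, adjusted p = 0.575). Hk2, the muscle hexokinase that makes glucose 6-phosphate, read 319 to 356.1 in SIRT6KO and 309.2 to 496.2 in WT.

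The list of other NADPH sources had means on both sides, with 4 of 13 higher and 9 lower in the mean (median -0.14). These counts include the NAD kinase genes Nadk (-0.20) and Nadk2 (1.04), whose enzymes make NADP and not NADPH. They also include Me2 (-0.22), a malic enzyme that mainly makes NADH. The mitochondrial enzymes Idh2 and Nnt had all SIRT6KO arrays above all WT arrays, a pattern seen in 4.51% of all genes. Idh2, an isocitrate dehydrogenase, read 609.6, 1686.7 and 1912.6 in SIRT6KO and 534.4, 507.8 and 400.4 in WT (1.37, adjusted p = 0.532). Nnt, the proton-driven transhydrogenase, read 218.8, 470.9 and 287.8 in SIRT6KO and 183.6, 184.3 and 120.8 in WT (0.89, adjusted p = 0.552). Me1, the cytosolic malic enzyme that supplies lipogenesis, lay the other way at 457.2, 248.4 and 472.1 in SIRT6KO and 746.4, 543 and 550.8 in WT (-0.66, adjusted p = 0.58). The mitochondrial NAD kinase gene Nadk2 read 72.6, 154.6 and 166.7 in SIRT6KO and 73.6, 51.2 and 36.3 in WT (1.04, adjusted p = 0.537).

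Lipid synthesis genes, most of them coding for users of NADPH, and NADPH-using reductases were read next. The lipid list also holds Acly (-1.05), Acaca (-0.84) and Acacb (0.85), whose enzymes use no NADPH. In lipid and sterol synthesis 7 of 9 genes had lower means in SIRT6KO (median -0.63), among them Fasn (-2.39) and Hsd17b12, an elongation reductase (-0.96, adjusted p = 0.53). Fdft1, squalene synthase, was an exception at 75.7, 312.4 and 912.7 in SIRT6KO and 113.3, 62.8 and 60.7 in WT (1.72, adjusted p = 0.6). Of 7 measured reductases, 4 were higher and 3 lower (median 0.019), and all 7 overlapped. Gsr, glutathione reductase, read 41.2, 101.5 and 235.3 in SIRT6KO and 85.5, 95.2 and 68.1 in WT.

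Genes of transcription factors known to act on the pathway, and their targets, followed. Of 9 measured NRF2 regulators and targets, 8 had higher means in SIRT6KO (median 0.41), against 8522 of all 18193 genes. Bach1, a repressor of NRF2 targets, did not overlap (68.1, 84.2 and 309.6 in SIRT6KO, 54.3, 55.7 and 48.4 in WT, adjusted p = 0.611). It was the only gene of the list with all SIRT6KO arrays above all WT arrays, a pattern of 4.51% of all genes. The median distance of this list from the WT mean was -0.11, 0.27 and 0.99 in the SIRT6KO arrays, so that replicate 3, also the highest for Pgd, stood apart. Of 8 ChREBP and SREBP genes, Mlxipl, which encodes ChREBP, read 164, 182.1 and 114.2 in SIRT6KO and 301.2, 252.6 and 217.2 in WT (-0.70, adjusted p = 0.529). Its relative Mlxip read 195.6, 283.5 and 270 in SIRT6KO and 169.5, 144 and 127.9 in WT (0.70, adjusted p = 0.524). Neither overlapped between the groups. Srebf1 overlapped, at 68, 126 and 108.8 in SIRT6KO and 155.7, 110.5 and 106.8 in WT.

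Ribose phosphate users and salvage genes had no member without overlap (7 of 11 higher, 4 lower, median 0.067). Prps1, which makes phosphoribosyl pyrophosphate from ribose 5-phosphate, read 103.5, 151.9 and 170.3 in SIRT6KO and 120.4, 104.5 and 69.3 in WT (0.47, adjusted p = 0.641). Prps2, the gene of an enzyme for the same step, had the lower mean in SIRT6KO. It read 4.4, 23 and 8.3 in SIRT6KO and 24.5, 25.3 and 17 in WT (-0.50, adjusted p = 0.634). Ppat, the first enzyme of purine synthesis, read 30.3, 35.5 and 25.7 in SIRT6KO and 53.5, 44.5 and 34.4 in WT (adjusted p = 0.6). Around H6pd, the endoplasmic reticulum transporter of glucose 6-phosphate, Slc37a4, read 724.4, 309.6 and 182.9 in SIRT6KO and 1025.5, 917.5 and 645.4 in WT (-1.25, adjusted p = 0.564). Hsd11b1, which uses the NADPH that H6pd makes, read 50.5, 69.3 and 118 in SIRT6KO and 79.5, 64.4 and 53.8 in WT. The G6pd2 paralogue was at 0.3 to 1.5 in SIRT6KO and 0.7 to 3.6 in WT.

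**Figure D5:**
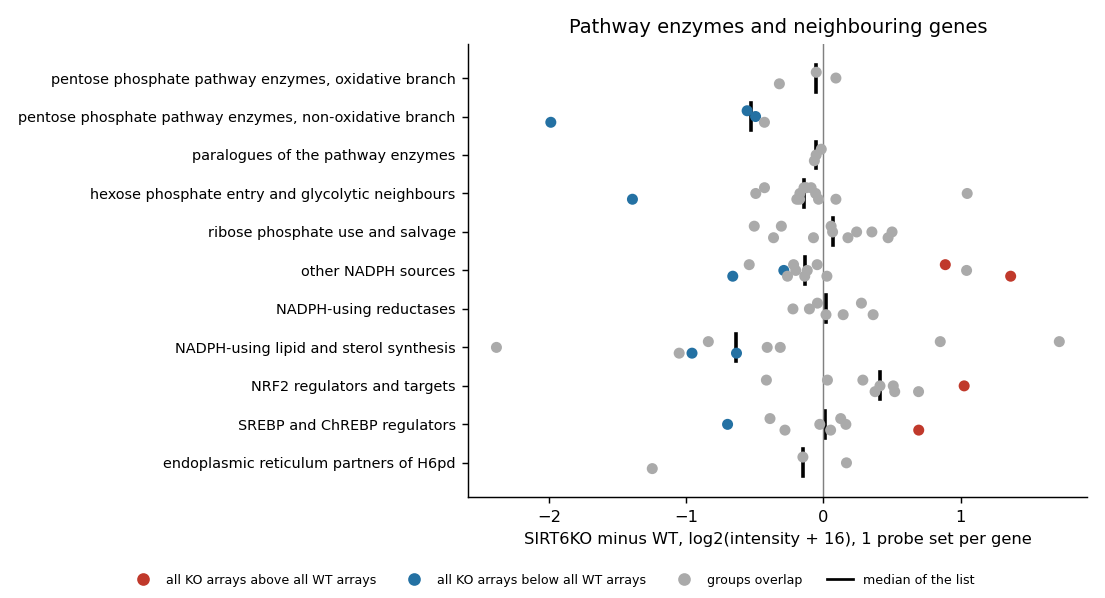
Difference between SIRT6KO and WT on the log2(intensity + 16) scale, 1 point per gene, for the pathway branches and the lists of neighbouring genes; colours show whether the groups overlap and the bar gives the list's median. The non-oxidative branch has 3 of 4 points without overlap, all below 0, and the other NADPH sources have such points on both sides.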

How the data were processed

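RNA from muscle of 3 SIRT6KO and 3 WT mice was isolated with TriPure and biotin-labelled, per the labels' protocols, and measured on Affymetrix Mouse Genome arrays. The table deposited by the authors holds 1 linear intensity per probe set. The sources used here name no software, scaling or background correction. Each of 45037 probe sets, without 64 controls, was taken as log2(intensity + 16) and compared by limma 3.58.1 in R 4.3.3 (lmFit, eBayes, two-sided), with Benjamini-Hochberg adjustment over all of them. All adjusted p-values are limma's. Folds on this scale understate dim probe sets. Precision is limited by having 3 arrays a group.

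The platform annotation gave 1 symbol to 34945 probe sets, of which 34741 matched RefSeq (GRCm38.p6), several to 932 and none to 9160. A gene's brightest probe set over the 6 arrays stood for it. From each neighbour list up to 4 genes of lowest p could be named. The members and lists were chosen with earlier results of these data known. Promoter windows were found for all 7 genes. Alternatives were 3 other scalings (quantile, array median, hybridization controls), a median-level filter, limma's trended and robust option, a block for the replicate number, offsets of 1 and 64, a stricter threshold of 0.01, omission of each array, and averaging the probe sets of each gene.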

Additional observations from a re-analysis of the deposited data

How the results depend on the processing

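The differences of Tkt, Taldo1, Rpia and Rpe stayed negative under all 15 alternatives run for each, from -2.53 to -1.30 for Tkt, -0.80 to -0.26 for Taldo1, -0.62 to -0.22 for Rpia and -0.65 to -0.21 for Rpe. Directions in the oxidative branch were not settled: Pgls became 0.24 with scaling to hybridization controls, and with each array left out Pgls ran from -0.34 to 0.18, Pgd from -0.85 to 0.0074 and H6pd from -0.17 to 0.36. Among all probe sets, 4 passed, against 9 with quantile normalization, 11 with median centring, 79 with the median-level filter, 15 with trended and robust variance, 0 with the replicate block, 1 with an offset of 64, 2 at a threshold of 0.01 and 1 to 6 with an array left out. Pathway probe sets passing numbered 2 with the filter and 0 under every other alternative, and 1 neighbour gene passed with the filter. Non-oxidative genes without overlap, counted under alternatives after seeing the data, numbered 3, against 1 with scaling to hybridization controls and 3 to 4 with an array left out, where 10.2% to 19.1% of all genes had that pattern. The filtered Tkt call, combined with other settings after seeing the data, was also lost with trended and robust variance (adjusted p = 0.114) and with offsets of 1 (0.21) and 64 (0.397). Of all tested probe sets, 0.391%, 0.0711% and 0.0178% passed there, against 0.351% with the filter alone. Same-numbered arrays did not deviate together (correlations of -0.0055, 0.021 and -0.040). With 3 arrays a group this cannot show whether the numbers pair the mice, and the main fit assumed no pairs. With the replicate block the adjusted p of Tkt was 0.615.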

Other observations

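By the same measure of likeness, Taldo1 was closest to Sppl2a, an intramembrane protease gene (root mean square difference 0.0597 log2 units over 6 arrays), Nceh1, a cholesterol ester hydrolase gene (0.0882), and Slc38a10 (0.101). Sppl2a read 104.8, 104.7 and 104.1 in SIRT6KO and 191.8, 165 and 114 in WT (adjusted p = 0.564), so its SIRT6KO values were as even as those of Taldo1 and WT replicate 3 was again the lowest WT array. Pgd was closest to Tubb4b, a tubulin gene (0.261), Gart, an enzyme of purine synthesis (0.281), and Sephs2, which makes selenophosphate (0.292). Gart read 69.3, 78.5 and 158.2 in SIRT6KO and 145.3, 85.5 and 88.6 in WT (adjusted p = 0.97), with SIRT6KO replicate 3 the highest array, as for Pgd.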
